A study of Mus musculus with 12 samples.

Results

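Expression of 8 early response genes was examined in mouse heart: Egr1, Egr2 and Egr3 of the EGR family, Ier2, Ier3 and Ier5 of the group named immediate early response, and the transcription factor genes Srf and Myc. They were chosen by gene symbol, and make up 8 of the 33615 symbols in the deposited table. All 8 passed the filter on low counts, as did 15952 genes in all. The study compared 3 groups of 4 libraries from frozen heart tissue. In the first, hearts underwent 30 min of ischemia followed by 2 h of reperfusion (I/R), and the mice also received the KLF5 inhibitor ML264 (I/R + ML264). The second had the same I/R injury without ML264, and the third a sham operation (Sham). The sources used here give neither strain, age and sex nor the time and dose of ML264. They do not say whether a library stands for 1 animal, so p-values reflect the spread among libraries, which may be technical at least in part.

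Immediate early genes are switched on within minutes of a stimulus without new protein synthesis, by transcription factors that are already present in the cell. A classic route runs through the ERK kinases to ternary complex factors, which bind DNA together with serum response factor, the product of Srf, at sequences called CArG boxes. EGR proteins are zinc-finger transcription factors that bind GC-rich sites, and MYC is a transcription factor that drives genes of ribosome building and growth.

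Library depth was 22.26 to 29.93 M estimated counts, and mitochondrially encoded transcripts took 35.24% to 41.13% of them. Levels are given as CPM, the counts per M of counts in the library after scaling by TMM factors. The 8 cardiomyocyte markers checked summed to 91500 to 100000 CPM in I/R + ML264, 89400 to 103000 CPM in I/R and 83900 to 96900 CPM in Sham. Most of each sum was Ttn, which averaged 72900, 70900 and 70900 CPM in these groups. Of the 8, 2 passed the test used below as higher in I/R than in Sham. They were Tnnt2 and Actn2, with log2 fold changes of 0.35 and 0.40. In whole tissue, fewer cells of a type and less RNA per cell cannot be told apart. The Y-linked gene Ddx3y stood at 38.8 to 52.0 CPM in 8 libraries, which were I/R + ML264 libraries 3 and 4, I/R libraries 2 and 3 and all 4 Sham libraries, and at 0.106 to 0.484 CPM in the other 4. The presence of Y-linked transcripts was therefore uneven across the groups. It also differed within I/R and within I/R + ML264, so the 4 libraries of either group cannot all stand for the same animal. For Sham this is not shown.

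The promoter sequences are shown because the 8 genes differed in how they moved, and the CArG box is the best-known element of this gene class. RefSeq windows (build GRCm38.p6) running from 250 bases before to 50 bases after the start were at hand for 4 of the 8, Egr2, Srf, Ier3 and Ier5, and 1 of the 5 Egr2 windows is shown, chosen from the 4 that hold a CArG box. The bases outside annotated exons are printed 5′ to 3′ on the gene's strand, with CArG boxes in capitals. The Egr2 sequence is chr10:67537619-67537868 on the plus strand, the Srf sequence chr17:46556176-46556412 on the minus strand, the Ier3 sequence chr17:35821463-35821683 on the plus strand and the Ier5 sequence chr1:155099637-155099886 on the minus strand.
Egr2: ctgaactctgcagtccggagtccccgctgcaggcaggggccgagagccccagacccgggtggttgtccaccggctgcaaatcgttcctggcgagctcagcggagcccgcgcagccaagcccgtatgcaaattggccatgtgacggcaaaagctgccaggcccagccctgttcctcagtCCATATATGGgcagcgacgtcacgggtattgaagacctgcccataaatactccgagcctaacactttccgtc
Srf: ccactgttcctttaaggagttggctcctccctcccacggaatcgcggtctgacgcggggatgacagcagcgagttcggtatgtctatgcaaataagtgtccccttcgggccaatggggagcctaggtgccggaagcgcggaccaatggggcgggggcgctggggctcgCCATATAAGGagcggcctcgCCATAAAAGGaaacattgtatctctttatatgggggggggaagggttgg
Ier3: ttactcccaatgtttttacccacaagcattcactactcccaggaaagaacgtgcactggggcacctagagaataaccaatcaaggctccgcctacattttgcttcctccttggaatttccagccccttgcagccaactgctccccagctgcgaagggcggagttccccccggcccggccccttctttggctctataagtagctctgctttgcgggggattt
Ier5: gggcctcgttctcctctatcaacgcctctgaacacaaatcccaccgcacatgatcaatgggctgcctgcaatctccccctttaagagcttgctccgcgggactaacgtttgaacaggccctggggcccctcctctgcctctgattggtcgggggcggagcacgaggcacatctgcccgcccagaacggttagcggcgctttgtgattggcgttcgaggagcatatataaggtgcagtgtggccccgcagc

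The Egr2 sequence holds 1 CArG box, beginning at position -72 from the start, and the Srf sequence holds 2. No CArG box was found in the Ier3 or Ier5 window. Of all 32851 RefSeq windows of the same span, 1.63% hold a CArG box on either strand. The core word of the cyclic AMP response element, TGACG, searched on both strands, occurs 2 times in the Egr2 window shown, 1 time in the Srf window and in 20.8% of all windows. These matches are letters in a window and say nothing about binding.

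At the end of reperfusion, 4 of the 8 genes were higher in I/R than in Sham, namely Egr2, Egr3, Ier3 and Myc. They passed an adjusted p under 0.05 in edgeR's quasi-likelihood test with Benjamini-Hochberg adjustment over all 15952 genes. Across all genes, 4.58% passed in this direction, 3.17% in the other and 7.75% in either. All 8 log2 fold changes were above 0, with a median of 1.82, against a median of 0.00 and a share above 0 of 50.3% over all genes. The same 4 genes also had CPM values that did not overlap between the groups, with every I/R library above every Sham library, and 8.54% of all genes did so. Egr1, Ier2, Ier5 and Srf did not pass the test.

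**Figure D1:**
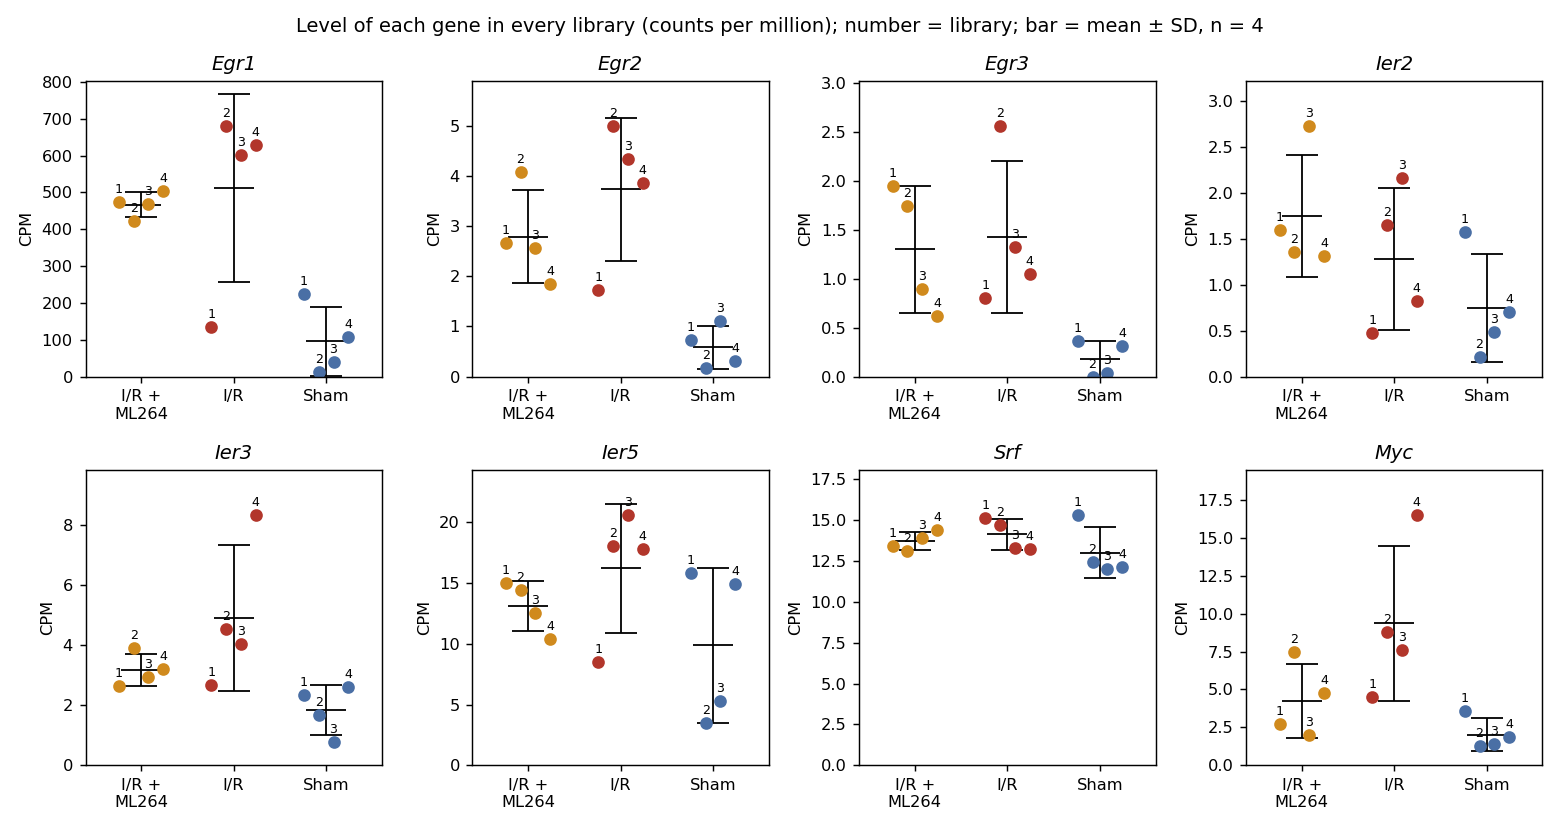
Level of each of the 8 genes in CPM (linear axis from 0) in every library of I/R + ML264, I/R and Sham; the number beside a point is the library and the bars are the mean ± SD (n = 4). Egr2, Egr3, Ier3 and Myc in I/R lie wholly above Sham, whereas for Egr1 the I/R library at 134 CPM lies below the Sham library at 224 CPM.

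The first member of the EGR family, Egr1, is a rapidly induced activator of inflammatory and clotting genes in injured vessels and heart. It was by far the most abundant of the 8 after division by transcript length, at 138 ± 16.0 CPM per kb in I/R + ML264, 122 ± 53.4 in I/R and 28.4 ± 30.2 in Sham (SD, n = 4 each). These values depend on the shares of the Egr1 transcripts, which changed places between libraries as described below. The gene sums, not divided by length, had the opposite order, at 467 CPM in I/R + ML264 and 512 CPM in I/R. The other 7 averaged 0.841 (Ier2) to 6.49 (Myc) CPM per kb in I/R. By gene sums in I/R, Ier5 at 16.2 CPM and Srf at 14.1 CPM were above Myc at 9.36 CPM. Egr1 had 475, 422, 469 and 503 CPM in I/R + ML264 libraries 1 to 4, 134, 680, 602 and 630 CPM in I/R libraries 1 to 4, and 224, 12.4, 39.4 and 108 CPM in Sham libraries 1 to 4. The I/R + ML264 libraries were close together, while I/R library 1 stood far below the other I/R libraries and below Sham library 1. Against Sham, the log2 fold change in I/R was 2.42 ± 0.81 (SE), with a 95% interval of 0.59 to 4.25, and edgeR's adjusted p was 0.109. Egr1 was called by the DESeq2 Wald test (adjusted p = 0.0165), and the adjusted p was 0.0534 to 0.264 over all other alternatives. It was 0.0844 without I/R library 1, with a log2 fold change of 2.74.

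The related gene Egr2, known for its part in myelination and in lymphocyte responses, was far less abundant and rose in I/R. It lies at chr10:67535475-67542188 (GRCm38, plus strand). Its level was 2.66, 4.07, 2.57 and 1.85 CPM in I/R + ML264 libraries 1 to 4, 1.72, 4.99, 4.34 and 3.86 CPM in I/R libraries 1 to 4, and 0.724, 0.181, 1.11 and 0.317 CPM in Sham libraries 1 to 4. All 8 libraries of injured hearts lay above all 4 Sham libraries. The log2 fold change of Egr2 in I/R against Sham was 2.67 ± 0.47, a 6.36-fold higher level, with edgeR's adjusted p = 0.00546. The call held in each of the 12 fits that left out 1 library, with an adjusted p of 0.00192 to 0.0224.

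Egr3, which like Egr2 is induced by growth and antigen receptor signals, lies at chr14:70077203-70082614 on the plus strand and was barely detected in Sham. The level was 1.95, 1.74, 0.896 and 0.617 CPM in I/R + ML264 libraries 1 to 4, 0.806, 2.56, 1.33 and 1.05 CPM in I/R libraries 1 to 4, and 0.362, 0, 0.0347 and 0.317 CPM in Sham libraries 1 to 4. Sham library 2 had no count, which allows up to 3 counts or 0.111 CPM, counting error only. The groups of injured hearts again did not overlap Sham. In I/R against Sham, Egr3 rose by 3.03 ± 0.69 on the log2 scale, with edgeR's adjusted p = 0.0182. Without Sham library 3 the adjusted p was 0.0526, and over all alternatives it was 0.000125 to 0.0622.

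Among the IER genes, Ier3, which encodes a stress-induced regulator of cell survival, was the one that passed. It lies at chr17:35821684-35822923 on the plus strand. Ier3 had 2.63, 3.91, 2.96 and 3.22 CPM in I/R + ML264 libraries 1 to 4, 2.67, 4.56, 4.06 and 8.35 CPM in I/R libraries 1 to 4, and 2.35, 1.67, 0.764 and 2.61 CPM in Sham libraries 1 to 4. The lowest I/R library, at 2.67 CPM, was barely above the highest Sham library, at 2.61 CPM, and I/R library 4 was the highest of all. Its log2 fold change in I/R against Sham was 1.42 ± 0.37, with edgeR's adjusted p = 0.0315. The call was lost without I/R library 2 (adjusted p = 0.0566), I/R library 4 (0.0832), Sham library 2 (0.0875) or Sham library 3 (0.0571), and the adjusted p over all alternatives was 0.00195 to 0.115.

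Ier2 and Ier5 encode nuclear proteins of the same early class and neither passed the test. Ier2 had 1.60, 1.36, 2.73 and 1.32 CPM in I/R + ML264, 0.476, 1.65, 2.17 and 0.824 CPM in I/R and 1.58, 0.217, 0.486 and 0.705 CPM in Sham, in library order 1 to 4. Ier5 had 15.0, 14.4, 12.5 and 10.4 CPM in I/R + ML264, 8.53, 18.0, 20.6 and 17.8 CPM in I/R and 15.8, 3.51, 5.31 and 14.9 CPM in Sham. For both genes I/R library 1 was the lowest of its group, and Sham library 1 was near the level of injured hearts, as was Sham library 4 for Ier5. The log2 fold change in I/R against Sham was 0.80 ± 0.54 for Ier2 (95% interval -0.37 to 1.96, edgeR's adjusted p = 0.417). For Ier5 it was 0.72 ± 0.47 (95% interval -0.32 to 1.76, adjusted p = 0.402).

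Srf, whose protein binds the CArG box, was the steadiest of the 8. Its level was 13.4, 13.1, 13.9 and 14.4 CPM in I/R + ML264, 15.1, 14.7, 13.3 and 13.2 CPM in I/R and 15.3, 12.4, 12 and 12.1 CPM in Sham, in library order 1 to 4. The highest of all 12 was Sham library 1. The log2 fold change in I/R against Sham was 0.12 ± 0.11, with a 95% interval of -0.11 to 0.35 (edgeR's adjusted p = 0.552).

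Myc, a driver of growth genes that is also induced early after injury, had 2.70, 7.46, 2.03 and 4.76 CPM in I/R + ML264 libraries 1 to 4, 4.50, 8.77, 7.60 and 16.5 CPM in I/R libraries 1 to 4, and 3.57, 1.27, 1.42 and 1.87 CPM in Sham libraries 1 to 4. The gene lies at chr15:61985391-61990374 on the plus strand. Every I/R library was above every Sham library, with I/R library 4 far above the others, while I/R + ML264 overlapped both groups. In I/R against Sham, Myc rose by 2.22 ± 0.53 on the log2 scale, a 4.66-fold higher level, with edgeR's adjusted p = 0.0322. The call was lost without I/R library 2 (adjusted p = 0.0575), 3 (0.0514) or 4 (0.0673), and without Sham library 2 (0.0887), 3 (0.0981) or 4 (0.0872). Over all alternatives the adjusted p was 0.00116 to 0.515, the highest being that of the most abundant Myc transcript taken alone. The summed level of 6 platelet markers was also highest in I/R library 4, at 140 CPM, with 105 CPM in I/R + ML264 library 4 and 1.88 to 25.1 CPM in the other 10 libraries. Platelet marker Gp1bb was at 0 in all Sham libraries. Without I/R library 4 the log2 fold change in I/R against Sham was 1.79 for Myc and 1.03 for Ier3. The part of these markers in the Ier3 and Myc levels was not tested. The 7 neutrophil markers summed to 5.07 to 19.3 CPM in I/R + ML264, 7.36 to 17.3 CPM in I/R and 4.65 to 7.36 CPM in Sham, with S100a8 and Ly6g at 0 in Sham. The 7 endothelial markers summed to 357 to 442 CPM in I/R + ML264, 365 to 405 CPM in I/R and 423 to 514 CPM in Sham. Of these, 1 was called in I/R against Sham, Kdr, at 90.3 and 155 CPM (log2 fold change -0.78, edgeR's adjusted p = 0.0323). Log2 fold changes were -0.67 for Egfl7, -0.39 for Emcn and -0.38 for Tie1, but 0.05 for Pecam1, 0.04 for Cdh5 and 0.21 for Vwf. The part of neutrophils and endothelial cells in the levels of the 8 genes was not tested.

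None of the 8 genes differed between I/R + ML264 and I/R at an adjusted p under 0.05, by edgeR's quasi-likelihood test or by the DESeq2 Wald test, and 1, Myc, had an unadjusted p under 0.05. Over all genes, 0.0502% passed by edgeR in this comparison and 10.4% had an unadjusted p under 0.05. The median log2 fold change was -0.22 over the 8 genes and 0.00 over all genes, and none of the 8 had groups that did not overlap, which 2.54% of all genes had with I/R + ML264 higher and 3.08% with it lower. Myc averaged 4.24 ± 2.44 CPM in I/R + ML264 and 9.36 ± 5.12 CPM in I/R (SD, n = 4 each). Its log2 fold change was -1.14 ± 0.50, with a 95% interval of -2.25 to -0.02 and edgeR's adjusted p = 0.466, and it was -0.71 without I/R library 4. Ier3 averaged 3.18 ± 0.543 CPM in I/R + ML264 and 4.91 ± 2.43 CPM in I/R, a log2 fold change of -0.63 ± 0.35 (95% interval -1.38 to 0.13, adjusted p = 0.569).

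The EGR genes gave wide intervals in the same comparison, and differences inside them were not detectable at this spread. For Egr1 the log2 fold change was -0.13 ± 0.77 with a 95% interval of -1.86 to 1.60, for Egr2 -0.41 ± 0.41 with -1.28 to 0.47, and for Egr3 -0.12 ± 0.56 with -1.33 to 1.08. Egr1 averaged 467 ± 33.8 CPM in I/R + ML264 and 512 ± 254 CPM in I/R (SD, n = 4 each), so the I/R group was the more scattered. Ier2 had a log2 fold change of 0.45 ± 0.51 (95% interval -0.65 to 1.56) and Ier5 one of -0.31 ± 0.46 (-1.34 to 0.72). That of Srf was -0.04 ± 0.11, with an interval of -0.26 to 0.19.

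**Figure D2:**
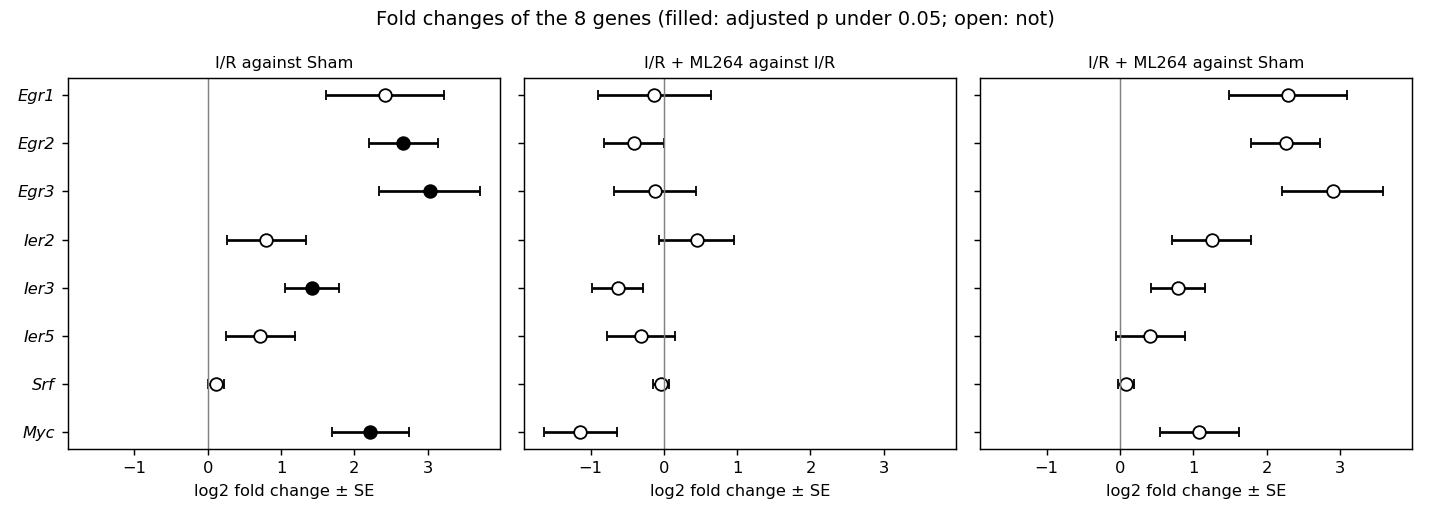
Log2 fold change ± SE of the 8 genes in I/R against Sham, I/R + ML264 against I/R, and I/R + ML264 against Sham (n = 4 libraries per group); filled points have an adjusted p under 0.05. The 4 filled points, Egr2, Egr3, Ier3 and Myc, are all in I/R against Sham.

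Against Sham, I/R + ML264 gave positive log2 fold changes for all 8 genes, with a median of 1.17 and 0.00 over all genes. This comparison shares the Sham libraries with I/R against Sham, and the values of each gene are therefore given side by side and not as independent evidence. No gene passed by edgeR, where 0.288% of all genes did and 0.257% were higher, while 4 (Egr1, Egr2, Egr3 and Ier2) had an unadjusted p under 0.05, as did 13.0% of all genes. DESeq2 called Egr2 and Egr3, among 370 genes in all. The log2 fold change of Egr1 was 2.29 ± 0.81 (edgeR's adjusted p = 0.270), of Egr2 2.26 ± 0.47 (0.0689), of Egr3 2.90 ± 0.69 (0.109) and of Ier2 1.25 ± 0.54 (0.335). Without I/R library 1, which enters the fit through the shared spread, Egr2 had an adjusted p of 0.0367, and over all alternatives it was 0.000123 to 0.255. Myc was at 1.08 ± 0.54 (0.431), Ier3 at 0.79 ± 0.37 (0.387), Ier5 at 0.41 ± 0.47 (0.764) and Srf at 0.08 ± 0.11 (0.794). CPM values of Egr1, Egr2, Egr3 and Ier3 did not overlap, with all 4 I/R + ML264 libraries above Sham, as was so for 3.99% of all genes.

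Several of the 8 genes were high or low together in the same libraries. The mean centred log2 level, which is log2 CPM minus the gene's mean over the 12 libraries averaged over the 8 genes, was 0.49, 0.74, 0.38 and 0.28 in I/R + ML264 libraries 1 to 4. It was -0.17, 1.08, 0.92 and 0.94 in I/R libraries 1 to 4, and -0.11, -2.31, -1.52 and -0.70 in Sham libraries 1 to 4. I/R library 1 lay at the level of Sham library 1, and Sham libraries 2 and 3 were lowest. The clock gene Arntl was at 11.1 CPM in I/R library 1 and at 10.4 and 15.3 CPM in Sham libraries 2 and 3, against 1.05 to 3.26 CPM in the other 9. With Arntl as a covariate, or with the presence of Y-linked transcripts as one, 1 of the 8 genes (Egr2) was called in I/R against Sham, and with libraries that hold Y-linked transcripts alone 3 were called. The count over all genes was 446 with the Y-linked covariate and 637 with Arntl, and 553 with libraries that hold Y-linked transcripts alone. It was 1236 with all libraries and no covariate. With the Y-linked covariate the log2 fold changes were 2.99 for Egr3, 1.97 for Myc and 1.30 for Ier3, and with Arntl they were 2.54, 1.62 and 0.82 in the same gene order. Those of Egr1, Ier2 and Ier5 were 1.44, 0.07 and 0.19 with Arntl, against 2.42, 0.80 and 0.72 without a covariate. With the Y-linked covariate these were 2.59, 1.14 and 0.76. Egr2 was at 2.41 with Arntl and 2.70 with the Y-linked covariate, and Srf at 0.11 and 0.14. The part of either property in these levels was not tested.

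**Figure D3:**
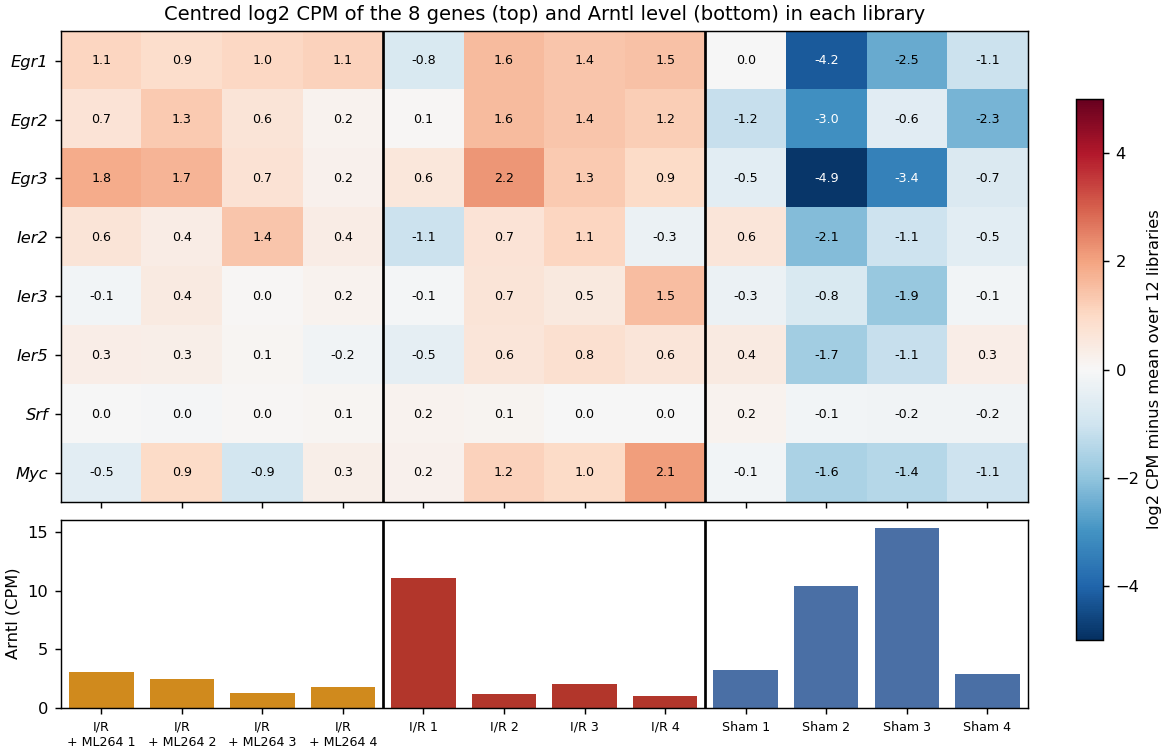
Centred log2 CPM of the 8 genes in each library (top, colour and number, with libraries in columns) and the Arntl level in CPM (bottom, bars from 0), for I/R + ML264, I/R and Sham. Centred Egr1 levels are below 0 in I/R library 1 and in all 4 Sham libraries (-0.02 in Sham library 1), and the 3 libraries with Arntl above 10 CPM, I/R library 1 and Sham libraries 2 and 3, are among these 5.

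The genes whose profile over the 12 libraries was nearest to each member, by root mean square (RMS) difference in centred log2 CPM among 10763 genes, are named here as a description. They were Junb (0.36), Btg2 (0.49) and Zfp36 (0.60) for Egr1, whose own RMS deviation was 1.75, and Maff (0.63), Gfpt2 (0.63) and Fosl2 (0.69) for Egr2, at 1.44. For Egr3, at 2.05, they were Nr4a1 (0.65), Cxcl1 (0.67) and Egr1 (0.72), and for Ier2, at 0.99, Dusp1 (0.43), Jun (0.52) and Ciart (0.53). Ier3, at 0.79, was nearest to Plscr1 (0.32), Bhlhe40 (0.33) and Ninj1 (0.35), and Ier5, at 0.73, to Coq10b (0.30), Trib1 (0.32) and Klf6 (0.35). Myc, at 1.10, was nearest to Fosl2 (0.43), Sat1 (0.43) and Cfap69 (0.44), and Srf, at 0.11, to Igf1r (0.06), Mapkapk2 (0.07) and Pphln1 (0.07). All 12 points of each profile share the same groups and libraries.

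The deposited table gives estimated counts per transcript, and the 2 Egr1 transcripts changed places between libraries. The share given to Egr1-201 was 10.4%, 9.70%, 8.35% and 90.2% in I/R + ML264 libraries 1 to 4, 9.89%, 89.4%, 91.0% and 93.0% in I/R libraries 1 to 4, and 7.92%, 6.93%, 8.62% and 92.4% in Sham libraries 1 to 4. Each library was thus near one end or the other, and all groups held both kinds. Egr1-201 begins 1384 bases before Egr1-202, keeps 36 bases that are spliced out of Egr1-202, and ends 28 bases later. A switch of this kind was widespread in the table. Of 4697 genes with at least 2 transcripts and 200 counts in every library, 2217 (47.2%) had a transcript above 70% in some libraries and below 30% in all others, though 0 others divided the libraries as Egr1 did. The cause was not tested. For Egr2, 51 of 84 transcript values were 0, and 7 different transcripts led in at least 1 library. For Myc, 21 of 96 transcript values were 0, and 6 different transcripts led in at least 1 library. For these reasons the results rest on gene sums, while the values in CPM per kb use the transcript shares.

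**Figure D4:**
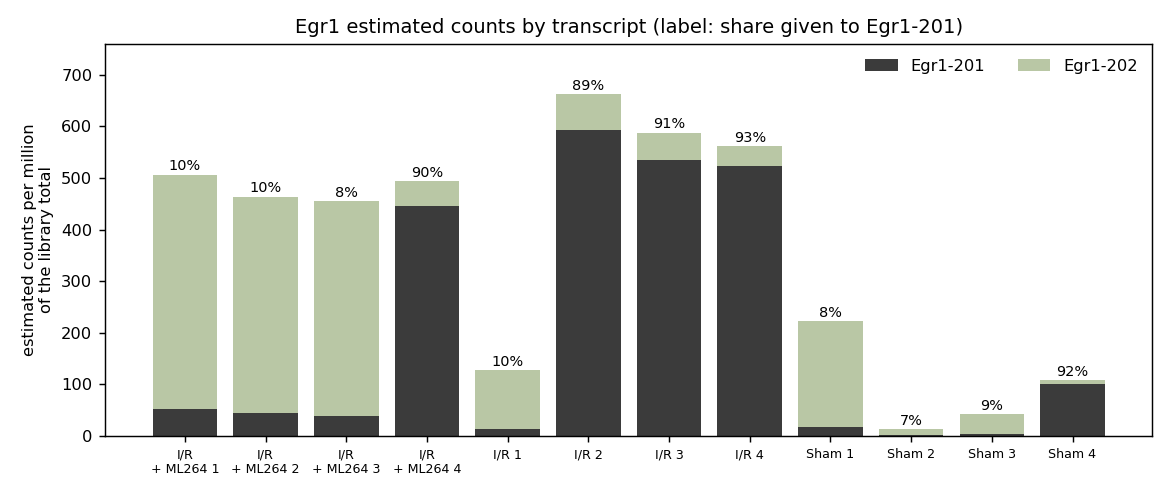
Estimated counts per M of the library total for Egr1-201 (dark) and Egr1-202 (light), stacked from 0 in each library of I/R + ML264, I/R and Sham, with the Egr1-201 share above each bar. Egr1-201 takes 89.4% to 93.0% in 5 libraries and 6.93% to 10.4% in the other 7.

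Other immediate early genes rose as well. Of 40 other immediate early genes tested, 16 rose and 0 fell in I/R against Sham, with a median log2 fold change of 1.64 (0.00 over all genes), and 10 to 20 were called when 1 library was left out, the lowest being without Sham library 3. DESeq2 called 26 of the 40, among 1779 genes in all, where edgeR called 1236 genes in all. Ppp1r15a, which restarts translation after stress, averaged 14.6 ± 2.61 CPM in I/R and 4.63 ± 0.825 CPM in Sham. It rose by 1.66 ± 0.15 (edgeR's adjusted p = 4.03e-05). Gem, a small GTPase that restrains calcium channels, rose by 2.76 ± 0.28 (9.6e-05), the nuclear receptor gene Nr4a2 by 1.89 ± 0.24 (0.000607) and Gadd45b, a stress sensor, by 2.48 ± 0.35 (0.000629). The list had 3 called genes, Nr4a2, Gem and Ppp1r15a, in I/R + ML264 against Sham, with a median of 1.27. That count was 2 without Sham library 4, up to 9 in the other fits with 1 library left out, and 14 by DESeq2. Of all genes, edgeR called 0.257% as higher in this comparison, and DESeq2 called 370 genes. Against I/R, I/R + ML264 gave 0 by edgeR, 5 at an unadjusted p under 0.05 and 1 by DESeq2, with a median of -0.24. The shares over all genes there were 0.0502% by edgeR and 10.4% at an unadjusted p under 0.05, and DESeq2 called 151 genes.

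Genes that act beside the 8 were taken next in I/R against Sham, where 7.75% of all genes were called. No co-repressor of EGR proteins was called: Nab1 averaged 25.8 ± 4.80 CPM in I/R and 20.4 ± 1.97 CPM in Sham (log2 fold change 0.34 ± 0.12, edgeR's adjusted p = 0.101), and Nab2 had a log2 fold change of -0.23 ± 0.22 (0.580), with 37.9% of its 31-base words shared with other genes, which makes its counts uncertain. The 6 cofactors of SRF gave 0 calls by edgeR and by DESeq2, with 2 at an unadjusted p under 0.05, which 23.2% of all genes reached. Their log2 fold changes were -0.23 for Elk1, -0.31 for Elk3, -0.03 for Elk4, -0.19 for Mkl1, -0.06 for Mkl2 and 0.27 for Myocd. Of 16 cytoskeletal targets of SRF, 2 rose, Fhl2 by 0.39 ± 0.09 (adjusted p = 0.0162) and Tagln2 by 0.70 ± 0.18 (0.0357), with 0 to 4 calls when 1 library was left out and 0 without Sham library 4. Of 10 kinases of the ERK pathway, 1 fell, Mknk1, by 0.79 ± 0.20 (0.025), and the count was 0 to 1 with 1 library left out. Of 3 other genes listed for their EGR or IER names, Egr4 and Ier5l were below the filter. Ier3ip1, named for an interaction with IER3, was tested and not called (0.10 ± 0.20, edgeR's adjusted p = 0.810).

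The lists of reported targets are read against the 4.58% of all genes that rose in I/R against Sham. Of 11 reported EGR1 targets, 2 rose, the leukocyte adhesion gene Icam1 by 1.31 ± 0.23 (edgeR's adjusted p = 0.00528) and the monocyte chemokine gene Ccl2 by 2.50 ± 0.56 (0.0210), with a list median of 0.21 and 1 to 3 calls when 1 library was left out. Of 18 MYC targets in ribosome building and growth, 5 rose and 0 fell, with a median of 0.22, and 1 was called without Sham library 2. Among them the nucleolar genes Nop58 and Gnl3 rose by 0.56 ± 0.13 (0.0137) and 0.44 ± 0.11 (0.0194). Npm1 at 0.31 ± 0.08 and Odc1 at 0.75 ± 0.20 also passed, but 29.4% and 52.0% of their 31-base words occur in transcripts of other genes, which makes their counts uncertain. In the MYC network of 11 genes, Mxd1, a MAX partner that opposes MYC, rose by 0.81 ± 0.16 (0.00641). None of these lists had a call by edgeR in I/R + ML264 against I/R, where 0.0502% of all genes passed. DESeq2 called 1 EGR1 target and 1 MYC target there, among 151 genes in all. An unadjusted p under 0.05 was reached by 4 EGR1 targets and 3 MYC targets, and by 10.4% of all genes.

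**Figure D5:**
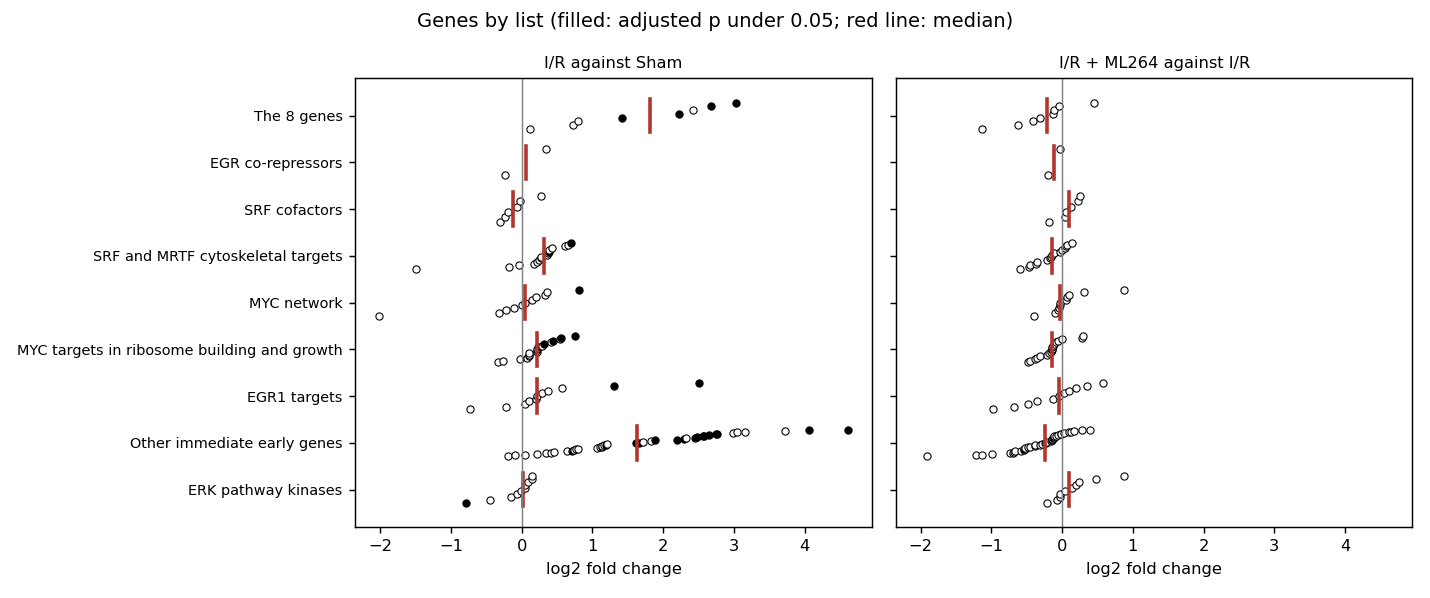
Log2 fold change of each tested gene by list (points; filled with an adjusted p under 0.05) and the list median (red line), for I/R against Sham and I/R + ML264 against I/R. The 8 genes and the other immediate early genes have medians of 1.82 and 1.64 in I/R against Sham, and those of the cofactor and target lists lie at or below 0.32.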

How the data were processed

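Bulk RNA sequencing was done on frozen heart tissue, with libraries made by the Nextera XT kit, which does not mark strand, per the labels' protocols. The authors deposited estimated counts per transcript, not normalized. Both kallisto and FastQC are named with GRCm38 (mm10), per the submitters' processing notes. Tool versions and the annotation were not given in the sources used here. Values of 104952 transcripts were added up by symbol, and the sums rounded. Genes were kept by filterByExpr (minimum of 10 counts), and 3 comparisons were fitted in 1 model with edgeR 4.0.16 (R 4.3.3) over 12 libraries, using TMM factors and the robust quasi-likelihood F-test, with Benjamini-Hochberg adjustment over all genes tested. The biological coefficient of variation was 0.205, and an adjusted p under 0.05 counts as called. SE is the log2 fold change divided by the square root of F. The script was tested on simulated data. Depth of 22.26 to 29.93 M counts puts 3 counts, the limit a count of 0 allows, at 0.1 to 0.135 CPM.

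The members and lists were chosen with earlier results of these data known. Named genes are the 8 members, up to 4 called genes per list with the smallest adjusted p (lists of 6 or fewer in full), and the 3 nearest genes to each member whose average log2 CPM was 1 or more. Alternatives were RLE factors, upper-quartile factors, the Wald test of DESeq2 1.42.0, other filters, only the 2 groups compared, a replicate block, covariates for Y-linked transcripts and for Arntl, only libraries with Y-linked transcripts, mitochondrial genes left out, the most abundant transcript alone, and each library left out in turn. Words of 31 bases shared with other genes were 0% to 1.49% of those of each member.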

Additional observations from a re-analysis of the deposited data

Results flagged for a closer look

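Of 27 groups of 4 libraries tested for a library far from the other 3, 5 held one. Chance gives about 1 in 20 for normally distributed values, which does not hold for the Egr1-201 share. Egr1 in I/R library 1 was at 134 CPM, the lowest of its group, with a gap of 0.857 of the group's range to the next library. Srf in Sham library 1 was at 15.3 CPM, the highest of its group (0.868 of the range). The Egr1-201 share was 90.2% in I/R + ML264 library 4 (0.975), 9.89% in I/R library 1 (0.957) and 92.4% in Sham library 4 (0.98). As this share lay near one end or the other in every library, any split of 3 to 1 is flagged. The count of 5 is therefore not read as an excess over chance.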

How the results depend on the processing

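In I/R against Sham, 4 of the 8 genes were called, and the count was 2 without a filter on low counts, 1 with Y-linked transcripts as a covariate, 1 with Arntl as a covariate and 2 with the most abundant transcript alone, a fit that holds 7 of the 8 genes. It was 1 to 4 over the fits that left out 1 library. The calls over all genes were 1236, and 1137, 446, 637 and 1237 in these alternatives in the same order. They were 659 to 1485 with 1 library left out. In I/R + ML264 against I/R the count of the 8 was 0 in every alternative run. Over all genes, 0 to 151 were called there. In I/R + ML264 against Sham the count of the 8 was 0, 2 with DESeq2, and 0 to 1 with 1 library left out. Over all genes it was 46, 370 with DESeq2, and 9 to 101 with 1 library left out. Deviations of same-numbered libraries showed little correlation over all genes (-0.11 to 0.09), and what the replicate numbers mark is not stated. The replicate block gave 3, 0 and 0 calls among the 8 in these comparisons, and 1009, 1 and 19 over all genes. With the block Myc was no longer called in I/R against Sham (edgeR's adjusted p = 0.0638). Signs turned in 8 values. In I/R + ML264 against I/R, Egr1 was at 0.0 with Arntl as a covariate, and with 1 library left out it ranged from -0.45 to 0.04 (without I/R library 2). Egr3 ranged from -0.38 to 0.31 (without I/R library 2), with 0.02 and 0.1 without I/R + ML264 libraries 3 and 4, and Srf at 0.02 in libraries with Y-linked transcripts. In I/R + ML264 against Sham, Ier5 was at -0.1 with Arntl as a covariate and Myc at -0.15 with the most abundant transcript alone. The causes were not tested. Of 191 values per comparison, 167, 185 and 186 kept direction and call.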
